A study of Mus musculus with 98 samples.

Results

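The NF-κB subunits and feedback inhibitors are described here in the blood leukocytes and spleen of injured mice: Nfkb1, Nfkb2, Rel, Rela, Relb, Bcl3, Nfkbia, Nfkbie, Nfkbiz and Tnfaip3. The members are all probe sets that the platform's gene table pairs with these 10 symbols. The rule for picking probe sets uses no measured value, but the genes were chosen with earlier results of these data known. That gives 14 probe sets of 22626 that are not controls, for 9 of the 10 genes. The table lists no probe set for Nfkb1, the p105 and p50 subunit, which is therefore unnamed here. Nfkbia was read by 4 probe sets, Nfkb2 and Nfkbiz by 2 each and the other 6 genes by 1 each. Probe sets of 1 gene share a transcript and are not independent. Where a gene is given by a single probe set, it is the brightest over all 98 arrays unless another is named.

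The 1-colour Affymetrix arrays cover blood leukocytes (64 arrays) and spleen (34 arrays) in 3 models: burn, trauma-hemorrhage and an infusion of LPS (lipopolysaccharide, from the outer wall of bacteria). Titles carry a letter and a code. For blood, the labels give E to the injured or infused mice and A to the sham mice, and all spleen titles carry E. The codes c and x are not explained by the labels and were compared as coded. In burn blood, letter A has 5 arrays coded c and 4 coded x, whereas letter E has 6 and 5. LPS blood has 6 coded c and 5 coded x under each letter. In trauma-hemorrhage blood, letter A has 5 of either code and letter E has 6 of either. The spleen sets hold 5 c and 6 x arrays for burn, 6 c and 6 x for LPS, and 6 c and 5 x for trauma-hemorrhage. LPS spleen titles carry a version mark that the other titles lack. The labels used here give no genotype, strain, age, dose or time after injury. No label says that arrays came from separate animals, so p-values cover only the spread among these arrays, which may be technical.

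NF-κB is a family of dimeric transcription factors built from Rel proteins (RelA, c-Rel, RelB, p50 and p52) that inhibitors of the IκB family hold in the cytoplasm until a receptor such as Toll-like receptor 4 activates the IκB kinases. Several of the genes it switches on encode its own inhibitors: IκBα (Nfkbia), IκBε (Nfkbie) and the ubiquitin-editing enzyme A20 (Tnfaip3) end the response, while the nuclear IκB proteins Bcl3 and IκBζ (Nfkbiz) bind p50 and p52 dimers and modify which genes are read. In leukocytes the pathway is known for inducing cytokines, chemokines and survival genes after infection or injury.

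Because members of the family are known to act on each other's genes, the promoters of the members are shown, taken from RefSeq (build GRCm38.p6). The table matched 7 of the 10 genes, with 10 promoters. None was matched for Nfkb1, Relb or Nfkbiz. Each window ran from 250 bases before the start of the transcript to 50 after it. The κB consensus motif, which is 10 bases long, was searched on both strands. It was found in 8 of the 10 member promoters, from 6 of 7 genes, and in 2779 (8.46%) of 32851 promoters of the same length. Overlapping matches run together as 1 stretch of capitals. The 250 bases before the start are printed 5′ to 3′ on the gene's strand, with motif matches in capitals. Nfkbia and Nfkbie are shown as the classical inhibitors, with 1 match each, at chr12:55492648-55492897 on the minus strand and chr17:45555450-45555699 on the plus strand. Nfkb2 (the first of 3 promoters, chr19:46304487-46304736, plus strand) and Rel (chr11:23770970-23771219, minus strand) are shown as subunits with overlapping matches. Tnfaip3 (the promoter at chr10:19015411-19015660, minus strand) has 2 matches. Rela (chr19:5637291-5637540, plus strand) is shown as the subunit without a match.
Nfkbia: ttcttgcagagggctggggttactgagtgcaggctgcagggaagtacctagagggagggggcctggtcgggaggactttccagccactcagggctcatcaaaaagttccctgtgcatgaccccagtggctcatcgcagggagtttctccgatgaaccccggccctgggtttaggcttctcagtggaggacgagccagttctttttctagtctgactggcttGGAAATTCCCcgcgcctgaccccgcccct
Nfkbie: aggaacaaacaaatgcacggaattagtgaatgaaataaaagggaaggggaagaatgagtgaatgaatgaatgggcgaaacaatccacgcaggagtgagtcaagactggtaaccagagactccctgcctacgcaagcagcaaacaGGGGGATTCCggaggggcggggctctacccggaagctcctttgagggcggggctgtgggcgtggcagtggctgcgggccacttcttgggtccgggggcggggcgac
Nfkb2: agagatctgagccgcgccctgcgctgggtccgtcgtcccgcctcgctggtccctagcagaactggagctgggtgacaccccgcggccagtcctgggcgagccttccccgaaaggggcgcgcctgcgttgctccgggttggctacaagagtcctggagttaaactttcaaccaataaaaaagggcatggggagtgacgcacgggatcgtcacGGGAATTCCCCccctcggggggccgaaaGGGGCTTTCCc
Rel: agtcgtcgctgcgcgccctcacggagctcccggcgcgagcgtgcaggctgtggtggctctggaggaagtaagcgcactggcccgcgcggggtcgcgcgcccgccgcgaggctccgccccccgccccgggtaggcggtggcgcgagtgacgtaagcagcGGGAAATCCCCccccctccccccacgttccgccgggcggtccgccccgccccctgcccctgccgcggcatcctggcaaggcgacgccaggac
Tnfaip3: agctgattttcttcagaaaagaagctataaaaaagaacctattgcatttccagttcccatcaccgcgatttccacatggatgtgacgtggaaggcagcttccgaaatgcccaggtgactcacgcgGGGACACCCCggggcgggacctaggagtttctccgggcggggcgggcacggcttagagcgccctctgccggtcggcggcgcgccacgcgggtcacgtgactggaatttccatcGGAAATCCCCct
Rela: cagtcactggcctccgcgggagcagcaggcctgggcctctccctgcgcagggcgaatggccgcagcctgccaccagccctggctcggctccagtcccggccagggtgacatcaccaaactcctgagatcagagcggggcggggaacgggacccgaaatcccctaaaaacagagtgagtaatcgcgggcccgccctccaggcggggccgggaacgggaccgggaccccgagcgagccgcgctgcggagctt
In Bcl3 the match, GGGAAGTCCC, lies just inside the transcript, from base 3 to base 12. A match describes letters only and is no evidence of binding, and the absence of one covers only this window.

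Each of the 6 sets (a model in a tissue) was scaled to its own floor, from 9.68 to 32.5, so intensities are compared within a set and not between sets. No member was at the floor on any array. A sign of RNA quality differed with the code in 2 sets. The actin control is read near both ends of its transcript, and the log2 ratio of the 3′ to the 5′ reading, which rises as RNA degrades, ran from 1.49 to 1.65 in c and from 0.938 to 1.27 in x arrays of LPS blood. In trauma-hemorrhage blood it ran from 1.79 to 2.28 in c and from 0.97 to 1.65 in x arrays. In these sets the code and the ratio cannot be told apart, whereas the ranges overlapped in burn blood and in all 3 spleen sets. Marker genes of cell types also moved with the code. Of 9 tested neutrophil markers, 6, 9 and 6 were higher in x in burn, LPS and trauma-hemorrhage blood, and 1 was lower in the last. In the spleens, 0, 5 and 5 were higher, and 1 was lower in burn spleen. B cell markers were lower in x for 6 of 6 in burn blood, 6 of 7 in burn spleen and 6 of 7 in trauma-hemorrhage spleen. Natural killer cell markers were lower for 5 of 5 in burn blood and 3 of 5 in both burn and trauma-hemorrhage spleen. T cell markers were lower for 5 of 7 in trauma-hemorrhage spleen. Monocyte and macrophage markers were lower for 4 of 5 and higher for 1 in burn spleen. In trauma-hemorrhage blood 3 of these 5 were higher and none lower, with summed levels from 5700 to 11900 in x against 1660 to 5070 in c. No marker with a probe set was at the floor on all arrays of a set. In such bulk samples, fewer cells of a type and less RNA per cell cannot be told apart.

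Code x was compared with code c in each set, in blood as the mean of both letters. Member probe sets were called where limma's adjusted p, over all 15838 probe sets tested, was under 0.05. In LPS spleen 10 of 13 tested members were higher and none lower, where 3.30% of all probe sets were called and 2.39% were higher. In trauma-hemorrhage spleen 11 of 13 were higher and none lower, beside 27.4% called and 10.6% higher. In LPS blood 7 of 14 were higher and none lower, beside 26.3% called and 13.5% higher. In trauma-hemorrhage blood 8 of 14 were higher and 1 lower, where 51.8% of all probe sets were called and 21.3% were higher, so that the share of members called, though not the share higher, stood close to the background. In burn blood 3 of 14 were higher and 2 lower, beside 18.0% called and 7.65% higher, and in burn spleen 6 of 13 were higher and 1 lower, beside 17.7% called and 9.72% higher. The median log2 difference of the members, x minus c, was 0.12, 0.25 and 0.40 in burn, LPS and trauma-hemorrhage blood, and 0.21, 0.66 and 0.37 in the same order over the 13 tested in spleen. The median of all tested probe sets lay between −0.04 and 0.00 in the 6 sets.

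**Figure D1:**
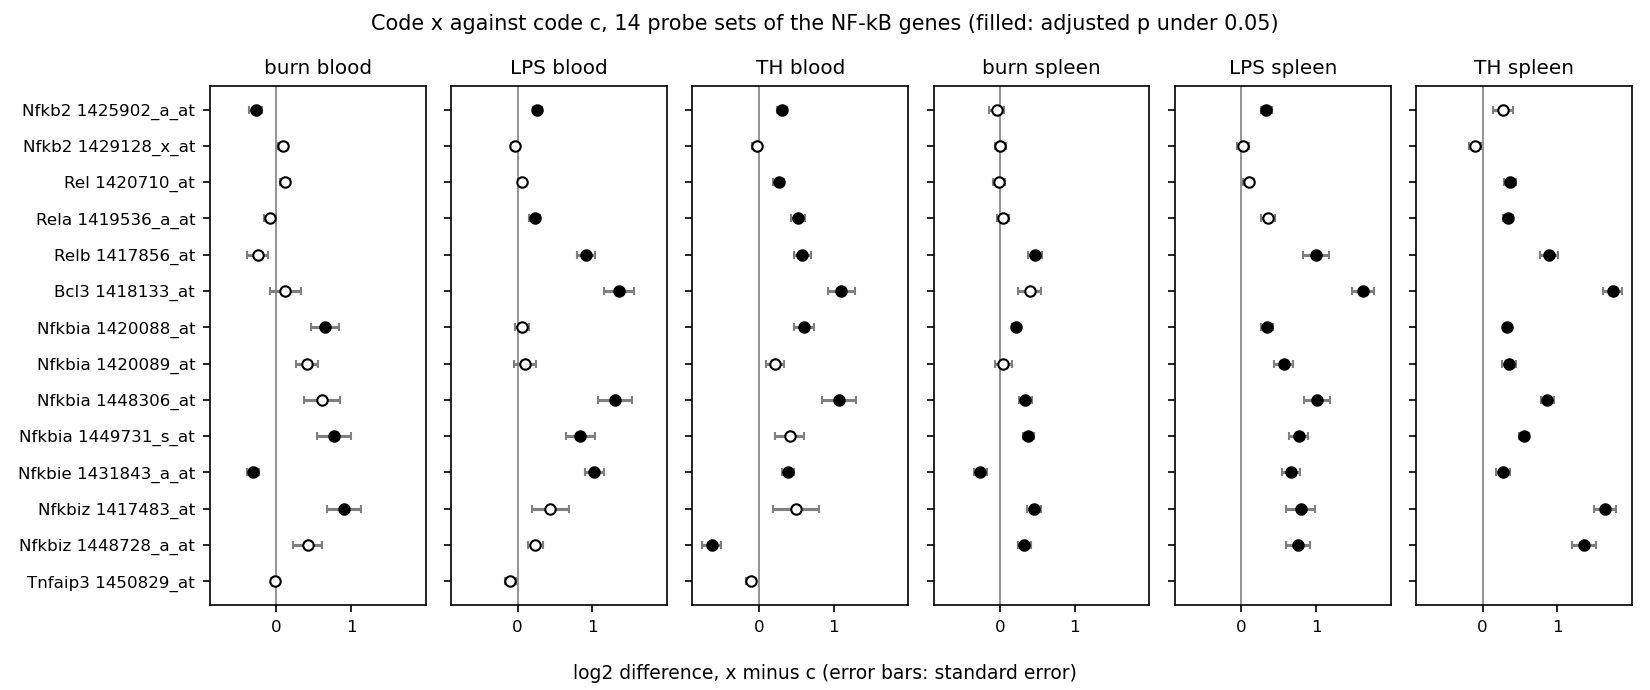
Log2 difference between code x and code c (x axis, with standard errors) for the 14 member probe sets (y axis) in the 6 sets, where TH is trauma-hemorrhage. Filled points passed an adjusted p of 0.05 and a missing point was not tested. Bcl3 and Relb lie right of 0 in 5 or 6 of the panels, while Nfkbie lies left of 0 in both burn panels.

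The member calls in LPS and trauma-hemorrhage blood did not pass when the actin ratio entered the model, which also raised the standard errors. With this ratio as a covariate, limma called 0 of 14 members in LPS blood (1 at an unadjusted p under 0.05) and 0 of 14 in trauma-hemorrhage blood (2 at an unadjusted p under 0.05). In trauma-hemorrhage blood the differences themselves stayed above 0 in 12 of 14 members, with a median of 0.37, and in LPS blood in 8 of 14, with a median of 0.12. Bcl3 was at 0.83 ± 0.42, Nfkbie at 0.49 ± 0.19 and Nfkbia 1448306_at at 1.29 ± 0.52 in trauma-hemorrhage blood. In LPS blood Bcl3 was at 0.30 ± 0.66 and Nfkbie at 0.24 ± 0.40. That fit still called 1747 of all probe sets in LPS blood but only 26 in trauma-hemorrhage blood. In the spleens it left 6, 10 and 11 members called in burn, LPS and trauma-hemorrhage. The deposited scaling, without quantile normalization, called 11 members in trauma-hemorrhage blood instead of 9. It also moved the split of all calls there from 3379 higher and 4822 lower to 4079 higher and 3718 lower. Of the medians over all probe sets, none moved by more than 0.1 under that scaling.

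Rela encodes p65, the main activating subunit of the canonical pathway. Its intensity in trauma-hemorrhage spleen was 714 to 920 (median 802) on the c arrays and 1053, 1005, 1077, 1089 and 1048 on the x arrays. The groups did not overlap, and x was higher by 0.34 ± 0.06 (log2 difference ± SE, adjusted p = 0.00099). In trauma-hemorrhage blood it ran from 177 to 323 (median 222) in c and from 235 to 619 (median 362) in x. These groups overlapped, with a difference of 0.52 ± 0.09 (adjusted p = 0.00012). LPS blood gave a smaller difference of 0.23 ± 0.07 (adjusted p = 0.023), between medians of 716 and 906. That call was lost with the deposited scaling, and with the actin ratio as a covariate the difference was −0.32. In LPS spleen the difference of 0.36 ± 0.10 missed the threshold (adjusted p = 0.069). Without the c array numbered 2 it was called, at an adjusted p of 0.012. Neither burn set showed a difference past the threshold, with −0.08 ± 0.08 in blood and 0.04 ± 0.08 in spleen.

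Rel encodes c-Rel, the subunit best known from lymphocytes. In trauma-hemorrhage spleen its intensity was 175 to 204 (median 183) in c and 219, 220.1, 236, 279 and 278 in x, with no overlap. The difference was 0.37 ± 0.08 (adjusted p = 0.0029). Trauma-hemorrhage blood gave 0.26 ± 0.07 (adjusted p = 0.003), with c from 163 to 234 and x from 222 to 274. Rel passed in no other set, where its differences ran from −0.02 to 0.12.

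Nfkb2 encodes p100, which is both an inhibitor and the precursor of the subunit p52. Its 2 probe sets disagreed. The brighter, 1429128_x_at, whose suffix marks probes that may also match other transcripts, showed no difference past the threshold in any set, with values from −0.10 to 0.09. The other, 1425902_a_at, was higher in LPS blood (0.26 ± 0.06, adjusted p = 0.0018), trauma-hemorrhage blood (0.31 ± 0.07, adjusted p = 0.00068) and LPS spleen (0.34 ± 0.07, adjusted p = 0.022). In LPS spleen it read 144 to 178 in c and 186 to 208 in x, without overlap. In burn blood it was lower, by −0.28 ± 0.09 (adjusted p = 0.036), with c from 122 to 247 (median 136) and x from 102 to 126 (median 114). The burn blood call was lost on leaving out any of 11 of 20 arrays, and the LPS spleen call on any of 4 of 12.

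Relb encodes RelB, the partner of p52 in the non-canonical pathway, and showed the most regular pattern among the subunits. It was higher in x in all 3 spleen sets, each time without overlap. In burn spleen the c arrays read 81.9, 87.9, 75.8, 94.1 and 106, and the x arrays ran from 111 to 170 (median 125), a difference of 0.47 ± 0.09 (adjusted p = 0.0027). In LPS spleen c ran from 153 to 350 (median 259) and x from 420 to 570 (median 513), a difference of 0.999 ± 0.172 (adjusted p = 0.0042). In trauma-hemorrhage spleen c ran from 106 to 198 (median 163) and x read 252, 337, 314, 337 and 271, a difference of 0.89 ± 0.12 (adjusted p = 4.56e-05). All x arrays of the 3 spleen sets thus exceeded every c array of their set. In LPS blood the range was 96.6 to 163 (median 108) in c and 138 to 397 (median 206) in x, with 0.92 ± 0.12 (adjusted p = 1.28e-05). Trauma-hemorrhage blood gave 0.58 ± 0.11 (adjusted p = 0.00024). Burn blood gave −0.25 ± 0.14 (adjusted p = 0.24).

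Bcl3, the nuclear IκB protein that works with p50 and p52, had the largest differences of the shown members in LPS blood, trauma-hemorrhage blood, LPS spleen and trauma-hemorrhage spleen. In LPS spleen the c arrays ran from 237 to 536 (median 280) and the 6 x arrays lay close together, from 938 to 1030 (median 993). In trauma-hemorrhage spleen c ran from 188 to 396 (median 257) and the x arrays read 855, 833, 1029, 1090 and 1060.3. In both sets every x array lay above every c array. The differences were 1.63 ± 0.15 (3.09-fold, adjusted p = 5.25e-05) in LPS spleen and 1.74 ± 0.13 (3.34-fold, adjusted p = 2.07e-07) in trauma-hemorrhage spleen. Folds are on the scale of log2(intensity + 16), which understates the change of dim probe sets. In LPS blood c ran from 121 to 606 (median 183) and x from 248 to 1020 (median 497), with 1.36 ± 0.20 (2.57-fold, adjusted p = 4.13e-05). In trauma-hemorrhage blood c ran from 121 to 296 (median 212) and x from 225 to 1200 (median 455), with 1.11 ± 0.18 (2.15-fold, adjusted p = 5.77e-05). Both blood pairs overlapped. In burn spleen the c arrays read 127, 139, 138, 159 and 181, and x ran from 151 to 326 (median 183). That difference, 0.40 ± 0.16, missed the threshold (adjusted p = 0.095). The burn blood difference was 0.12 ± 0.21 (adjusted p = 0.77), with the highest c array, at 662, above every x array (177 to 279). Neutrophil markers moved with the LPS and trauma-hemorrhage spleen results. Their summed level ran from 18400 to 27200 in x against 8810 to 19900 in c in LPS spleen, and from 12600 to 18600 against 6480 to 13200 in trauma-hemorrhage spleen. Monocyte and macrophage markers, summed, ran from 6770 to 8370 against 5670 to 6870 and from 4100 to 6420 against 3200 to 4170. Of these 5 markers only Cd14, a co-receptor for LPS, was higher in either spleen set (by 2.28 and 3.40), and the median over the 5 was −0.12 and −0.34, with Csf1r and Ccr2 lower in trauma-hemorrhage spleen. The part of these cells in the results was not tested.

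**Figure D2:**
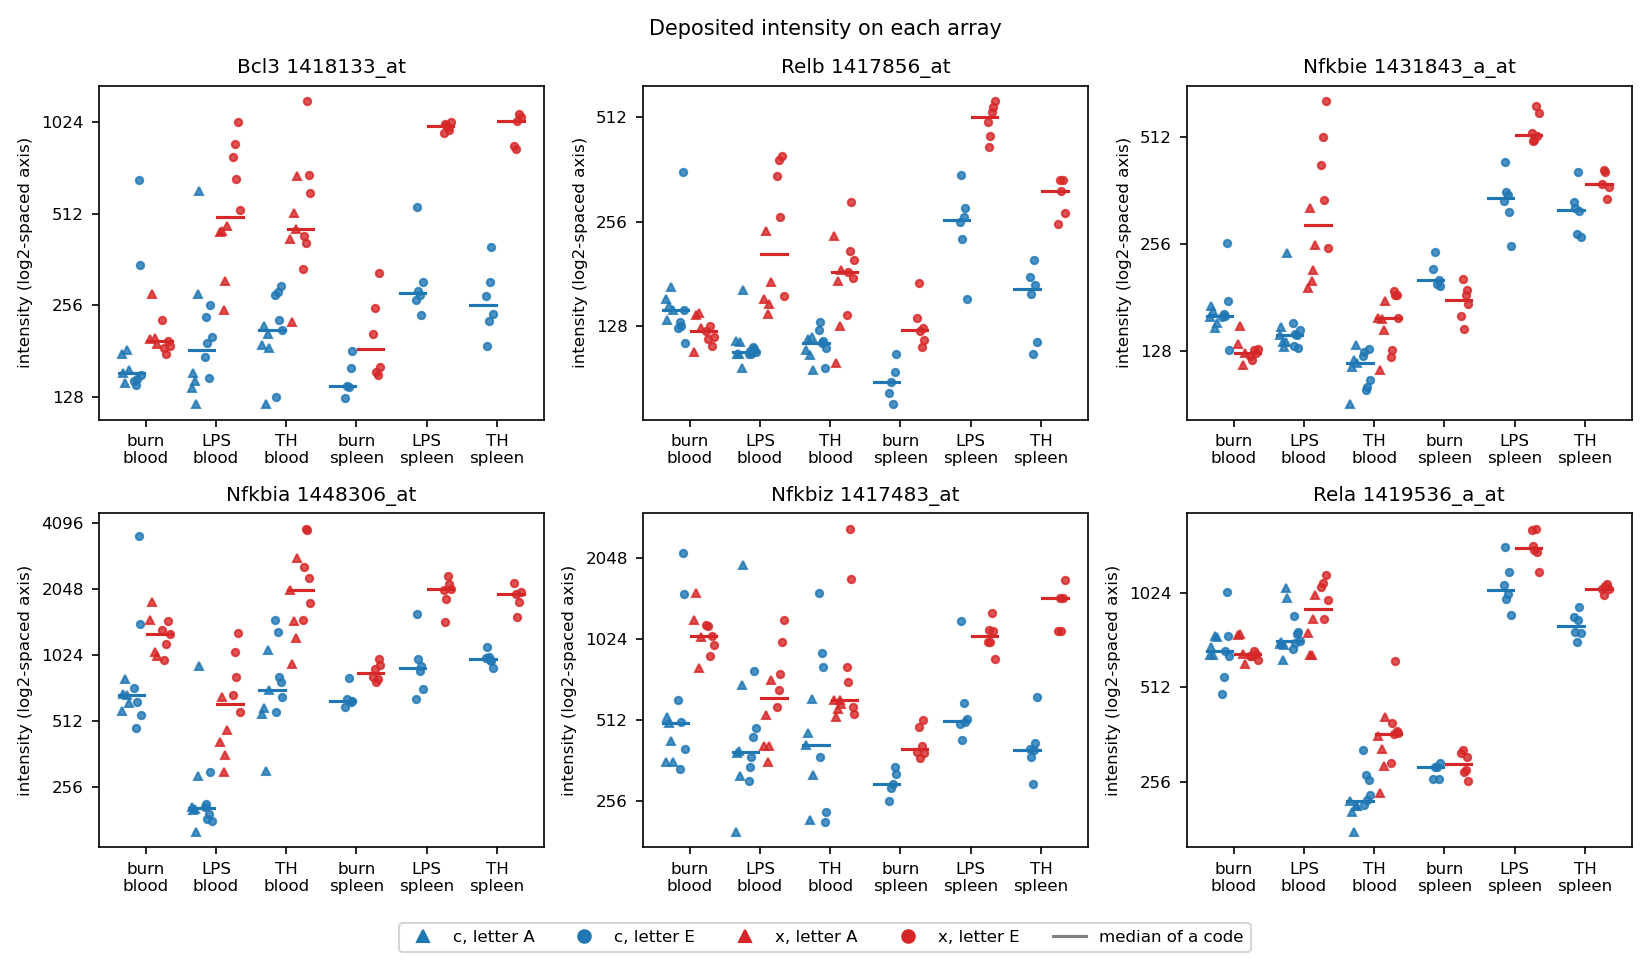
Deposited intensity on each array (y axis, spaced by log2) for Bcl3, Relb, Nfkbie, the Nfkbia probe set with the highest median difference, Nfkbiz and Rela in the 6 sets (x axis), with c in blue, x in red, triangles for letter A, circles for letter E and a line at each median. In LPS and trauma-hemorrhage (TH) spleen the x arrays of Bcl3, Relb and, in trauma-hemorrhage, Nfkbiz lie above all c arrays, and in burn blood 1 to 2 c arrays stand above the others.

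Nfkbia encodes IκBα, the inhibitor that is degraded on activation and then made again. All 4 of its probe sets had positive differences in all 6 sets, but their sizes differed. The brightest, 1420088_at, gave 0.65 ± 0.18 in burn blood (adjusted p = 0.017), 0.06 ± 0.10 in LPS blood (adjusted p = 0.69) and 0.61 ± 0.13 in trauma-hemorrhage blood (adjusted p = 0.00078). The probe set 1448306_at gave instead 0.61 ± 0.24 (adjusted p = 0.088), 1.30 ± 0.22 (adjusted p = 0.00016) and 1.07 ± 0.22 (adjusted p = 0.0005) in the same order. In LPS blood the first therefore did not pass, while the second had a 2.46-fold difference, with c from 159 to 912 (median 205) and x from 299.9 to 1287 (median 609). The remaining blood values were 0.41, 0.10 and 0.21 for 1420089_at, none past the threshold. For 1449731_s_at, whose suffix marks probes shared by several transcripts, they were 0.77, 0.84 and 0.41, the first and second past it.

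In the spleens most Nfkbia probe sets passed. In burn spleen 1448306_at read 588, 641, 803, 623 and 628 on the c arrays and 765 to 977 (median 846) on the x arrays, a difference of 0.34 ± 0.09 (adjusted p = 0.014). In LPS spleen c ran from 644 to 1570 (median 888) and x from 1440 to 2350 (median 2030), a difference of 1.02 ± 0.17 (adjusted p = 0.004). In trauma-hemorrhage spleen c ran from 895 to 1110 (median 976) and x read 2171, 1929, 1519, 1778 and 1986, a difference of 0.87 ± 0.08 (adjusted p = 2.2e-06). The groups did not overlap there and overlapped in the other spleen sets. All 4 probe sets passed in LPS and trauma-hemorrhage spleen, and all but 1420089_at passed in burn spleen. The smallest LPS spleen call, 0.34 ± 0.09 for 1420088_at (adjusted p = 0.045), was lost when any of 9 of the 12 arrays was left out.

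Nfkbiz encodes IκBζ, needed for a group of secondary response genes in myeloid cells. It rose most in trauma-hemorrhage spleen. There 1417483_at ran from 296 to 624 (median 398) in c and read 1095, 1453, 1096, 1454 and 1696 in x, without overlap, a difference of 1.64 ± 0.15 (3.11-fold, adjusted p = 1.5e-06). In burn spleen the c arrays read 257, 287, 298, 344 and 324, and x ran from 369 to 513 (median 399), again without overlap, with 0.45 ± 0.09 (adjusted p = 0.0025). In LPS spleen the difference was 0.79 ± 0.19 (adjusted p = 0.038), with 1 c array at 1190 inside the range of x (864 to 1280). Without that array, numbered 2, the difference was 0.99 and the adjusted p 2.9e-05. Leaving out any of the 11 other arrays lost the call. Its second probe set, 1448728_a_at, was also higher in all 3 spleens, by 0.33, 0.76 and 1.35 in burn, LPS and trauma-hemorrhage.

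In blood the Nfkbiz probe sets parted. In burn blood 1417483_at was higher in x by 0.90 ± 0.23 (adjusted p = 0.0082), with c from 338 to 2140 (median 501) and x from 801 to 1520 (median 1050). In LPS blood its difference was 0.44 ± 0.25 (adjusted p = 0.22), where 1 c array of letter A, numbered 6, read 1930. Without that array it was 0.63, at an adjusted p of 0.0088. In trauma-hemorrhage blood it was 0.50 ± 0.30 (adjusted p = 0.18). The probe set 1448728_a_at was lower in x in that set, by −0.63 ± 0.13 (adjusted p = 0.00037), with c from 392 to 573 (median 446) and x from 216 to 604 (median 318). Direction therefore depended on the probe set, and with the actin ratio as a covariate the fall was −0.20 (adjusted p = 0.85).

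**Figure D3:**
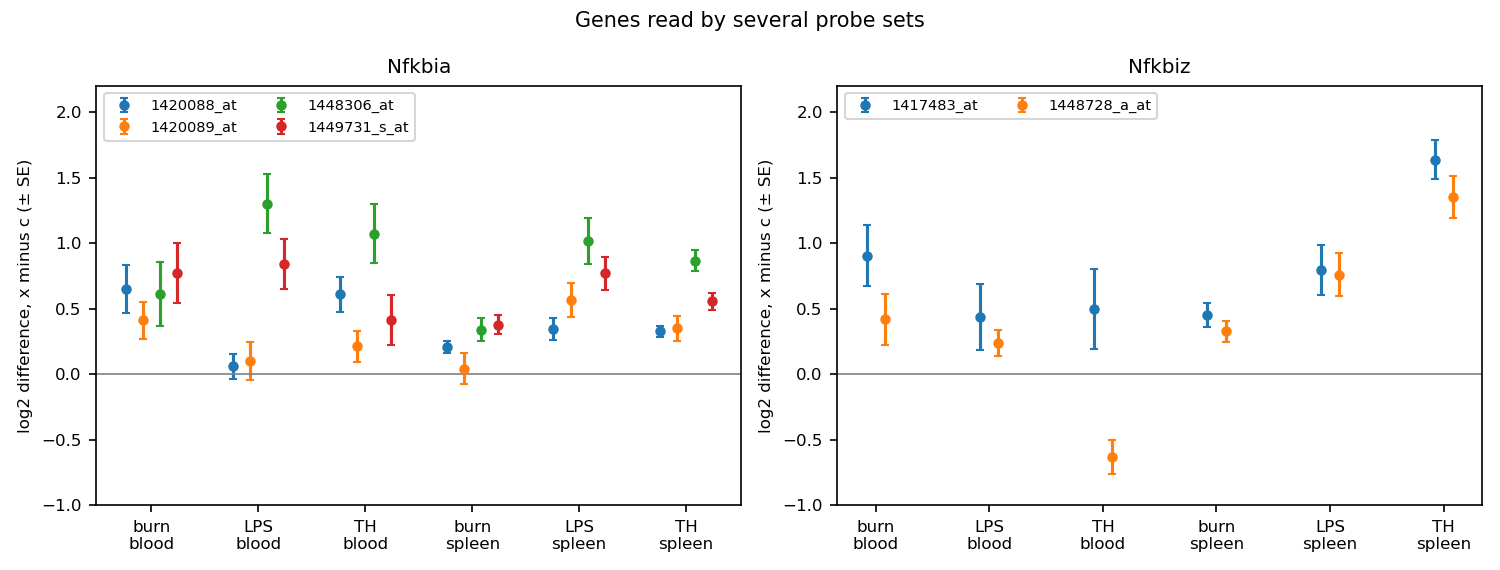
Log2 difference between code x and code c with standard errors (y axis) for the 4 probe sets of Nfkbia and the 2 of Nfkbiz in the 6 sets (x axis; TH is trauma-hemorrhage). The Nfkbia probe sets spread from 0.06 to 1.30 in LPS blood, and the Nfkbiz probe sets lie on both sides of 0 in trauma-hemorrhage blood.

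Nfkbie encodes IκBε, a slower inhibitor that acts on RelA and c-Rel dimers. It passed the threshold in all 6 sets, higher in LPS and trauma-hemorrhage and lower in burn. In LPS blood c ran from 131 to 242 (median 142) and x from 193 to 645 (median 289), with 1.03 ± 0.13 (2.04-fold, adjusted p = 5.63e-06). In LPS spleen c ran from 252 to 435 (median 345) and x from 498 to 627 (median 520), without overlap, with 0.66 ± 0.12 (adjusted p = 0.0048). Trauma-hemorrhage gave smaller rises, of 0.39 ± 0.08 in blood (adjusted p = 0.00056) and 0.27 ± 0.09 in spleen (adjusted p = 0.041). In burn blood x was lower by −0.32 ± 0.08 (adjusted p = 0.0079), with c from 130 to 258 (median 161) and x from 117 to 151 (median 127). In burn spleen the c arrays read 218, 244, 197, 203 and 196, and x ran from 148 to 204 (median 179), a fall of −0.26 ± 0.09 (adjusted p = 0.045). The burn spleen call was lost in 5 of 11 alternative fits and on leaving out any of 8 of 11 arrays. The trauma-hemorrhage spleen call was lost on leaving out any of 9 of 11. B cell markers fell in both burn sets, and their summed level ran from 3160 to 4420 in x against 4060 to 10900 in c of burn blood, and from 9610 to 11100 against 12900 to 14700 in burn spleen. Natural killer cell markers, summed, ran from 2300 to 3260 against 3140 to 3960 and from 2020 to 2370 against 2310 to 3440 in the same sets, and monocyte and macrophage markers from 2890 to 3510 against 3140 to 4430 in burn spleen. In trauma-hemorrhage spleen, where Nfkbie was higher, B cell markers fell as well, with sums from 8180 to 10800 in x against 13700 to 16800 in c. Of 5 natural killer cell markers there, 3 were lower and 1 was higher. The part of these cells in the Nfkbie result was not tested.

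Tnfaip3, which encodes A20, did not pass in blood. Its differences there were −0.02 ± 0.05 (burn), −0.10 ± 0.08 (LPS) and −0.11 ± 0.07 (trauma-hemorrhage), and its c and x ranges overlapped, for example 156 to 222 and 131 to 241 in LPS blood. In spleen its mean was under the filter on dim probe sets, so that it was not tested. On the arrays of burn spleen it read 22.7 to 48.5, and in trauma-hemorrhage spleen 23.2 to 35.1 in c and 49.4, 39.4, 44.5, 33.1 and 39.5 in x. In LPS spleen it read 82.2 to 123 in c and 75.2 to 120 in x, with overlap.

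No member was called in the same direction in all 6 sets. Nfkbie passed in all 6, higher in 4 and lower in 2. Relb and the Nfkbia probe sets 1420088_at, 1448306_at and 1449731_s_at were higher in 5, and Bcl3 and Nfkbiz 1417483_at, like Nfkbie, in 4. Over the 13418 probe sets tested in all sets, 23 were higher in all 6, 91 (0.678%) in 5 or 6 and 293 (2.18%) in 4 or more. In the spleens, 3 of 13 members had every x array above every c array in burn, 5 of 13 in LPS and 9 of 13 in trauma-hemorrhage. Among all tested probe sets this held for 6.14%, 2% and 5.75%, beside 17.7%, 3.30% and 27.4% called. In blood no member had groups that did not overlap, where 1.12%, 0.953% and 3.45% of all tested probe sets had such groups in burn, LPS and trauma-hemorrhage.

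Burn blood holds 2 c arrays of letter E, numbered 4 and 5, that stood apart for several members. On array 4, Bcl3 read 662, Relb 355, Nfkbie 258, Nfkbiz 1417483_at 2136 and Nfkbia 1448306_at 3568. On array 5 the same probe sets read 348, 142, 177, 1505 and 1415, with Relb inside the range of the letter A c arrays (133 to 166). On the other 9 c arrays Bcl3 was at 183 or below, Nfkbiz at 608 or below and Nfkbia at 792 or below. Without both arrays 10 of 14 members were called instead of 5, 8 of them higher, and 4249 of all probe sets instead of 2858. None of the 5 calls was lost. The Bcl3 difference then became 0.38 (adjusted p = 0.00035), that of Nfkbia 1448306_at 0.88 and that of Nfkbiz 1417483_at 1.18. Nfkbie stayed lower, at −0.25. Leaving out array 4 alone gave 9 calls. The labels give no reason to leave either array out. Neutrophil markers, summed, reached 48400 on the highest c array of burn blood, above the x arrays (20300 to 33700), while the median c array was at 7960. The part of these cells in the result was not tested.

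Within blood, x was compared with c for each letter. In LPS blood 8 of 14 members were higher in letter E, labelled as infused, beside 14.7% of all probe sets called. In letter A, labelled as sham, 2 of 14 were higher, beside 11.7%. Bcl3 read 148 to 256 (median 196) in c and 788, 864, 666, 1020 and 527 in x of letter E, without overlap. Its difference was 1.82 ± 0.29 in letter E (adjusted p = 0.00022) and 0.90 ± 0.29 in letter A (adjusted p = 0.044). Nfkbie differed by 1.44 ± 0.18 in letter E (adjusted p = 2.29e-05) and by 0.61 ± 0.18 in letter A (adjusted p = 0.029). For Relb the values were 1.32 ± 0.17 (adjusted p = 3.72e-05) and 0.51 ± 0.17 (adjusted p = 0.06). For Nfkbia 1448306_at the letter E difference was 1.89 ± 0.32 (adjusted p = 0.00032). The difference between letters was tested as an interaction. None of the 14 members passed it under limma (9 at an unadjusted p under 0.05, lowest adjusted p 0.39), and 0 of all 15838 probe sets passed. Of the 14 members, 12 had a larger difference in letter E, with a median interaction of 0.68. The c array of letter A numbered 6 was high for 5 of these probe sets, with Nfkbie at 242 (others 132 to 150). A high c array lowers the letter A differences and so raises the interaction. Without the x array of letter E numbered 5, 3 members passed an interaction over the 3 blood sets together. Neutrophil markers in LPS blood also differed by letter. Of 9 tested, 9 were higher in x in letter E (median difference 2.65) and 1 in letter A (median 0.44), with none lower. The part of these cells in the letter results was not tested.

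**Figure D4:**
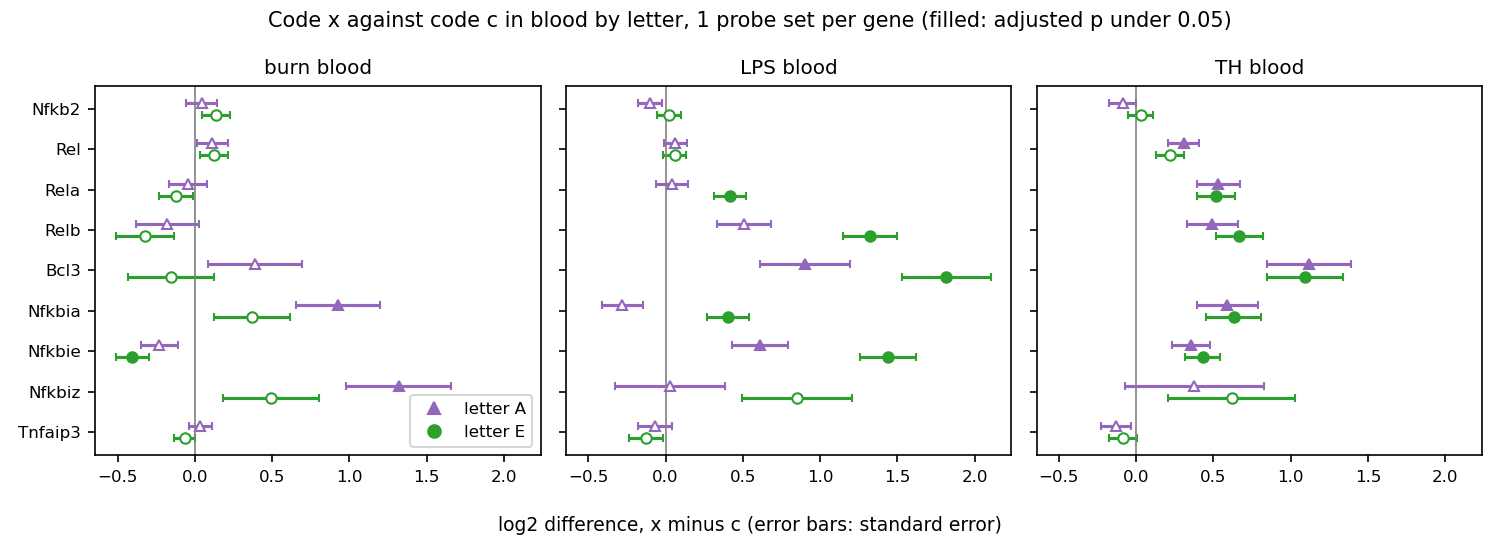
Log2 difference between code x and code c with standard errors (x axis) for 9 genes (y axis) in the 3 blood sets, with letter A as purple triangles and letter E as green circles, filled where the adjusted p was under 0.05. In LPS blood Bcl3, Relb and Nfkbie lie farther right in letter E than in letter A, and in trauma-hemorrhage (TH) blood the letters lie close together.

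In trauma-hemorrhage blood the letters gave like counts. Letter A had 7 higher and 1 lower of 14, beside 37.0% called, and letter E the same numbers beside 28.9%. The Bcl3 difference was 1.12 ± 0.27 in letter A and 1.09 ± 0.25 in letter E. In burn blood letter A had 3 higher of 14, beside 14.3% called. These were Nfkbia 1420088_at at 0.93 ± 0.27 (adjusted p = 0.026), Nfkbia 1420089_at at 0.65 ± 0.21 (adjusted p = 0.044) and Nfkbiz 1417483_at at 1.32 ± 0.34 (adjusted p = 0.012). Letter E, which holds the arrays that stood apart, had 1 lower of 14, beside 5.70% called, namely Nfkbie at −0.41 ± 0.11 (adjusted p = 0.028). No member passed the interaction in burn blood (0 at an unadjusted p under 0.05, where 0.0126% of all probe sets passed) or in trauma-hemorrhage blood (0 at an unadjusted p under 0.05).

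Letter E, labelled as injured or infused, was compared with letter A, labelled as sham, over both codes. None of the 14 members passed in any model under limma, where 0, 0 and 3 of all 15838 probe sets passed in burn, LPS and trauma-hemorrhage (0%, 0% and 0.0189%). At an unadjusted p under 0.05 there were 1, 4 and 4 members. The median difference of the members was 0.12, 0.16 and 0.19, with 12, 13 and 12 of 14 above 0. With array weights in limma 4 member calls were made over the 3 models, and 5 for the interaction. Code x against c called far more probe sets than the letter did, with 2858, 4167 and 8201 in the same blood sets. Within letter A alone, it called 14.3%, 11.7% and 37.0% of all probe sets. Whether the letter or the code separates injured from sham mice was not tested.

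The response to code x was compared between models as a difference of differences, and the 3 differences in a tissue share sets. In blood, LPS exceeded burn in 4 of 14 members and fell below it in 1, beside 20.9% called. Nfkbie differed by 1.34 ± 0.15 (adjusted p = 8.62e-10), Bcl3 by 1.24 ± 0.30 (adjusted p = 0.0014), Relb by 1.17 ± 0.19 (adjusted p = 2.98e-06) and Nfkb2 1425902_a_at by 0.54 ± 0.11 (adjusted p = 9.37e-05). Nfkbia 1420088_at went the other way, at −0.59 ± 0.21 (adjusted p = 0.035). Trauma-hemorrhage exceeded burn in 5 and fell below it in 1 of 14, beside 43.3% called, so that the share of members called stood close to the background. The highest was Bcl3 at 0.99 ± 0.30 and the 1 lower was Nfkbiz 1448728_a_at at −1.05 ± 0.21. Trauma-hemorrhage against LPS gave 2 higher and 2 lower of 14, a share below the 47.5% of all probe sets called. Nfkbie was lower there by −0.63 ± 0.15 (adjusted p = 0.00034) and Rela higher by 0.30 ± 0.12 (adjusted p = 0.034).

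In spleen the same comparison gave 4 of 13 members higher in LPS than in burn and none lower, beside 9.09% called. Bcl3 differed by 1.23 ± 0.22 (adjusted p = 0.00019) and Nfkbie by 0.93 ± 0.14 (adjusted p = 2.24e-05). Trauma-hemorrhage exceeded burn in 6 of 13, beside 23.1% called, with Bcl3 at 1.34 ± 0.23 (adjusted p = 2.28e-05) and Nfkbiz 1417483_at at 1.18 ± 0.23 (adjusted p = 0.00016). Rel was among them, at 0.38 ± 0.11 (adjusted p = 0.0098). Between trauma-hemorrhage and LPS, 1 of 13 passed, a share no higher than the 12.1% of all probe sets called. This was Nfkbiz 1417483_at, larger in trauma-hemorrhage by 0.84 ± 0.22 (adjusted p = 0.0086). Without the LPS spleen c array numbered 2, 19 calls were made over the 3 spleen comparisons instead of 11.

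Between tissues, the letter E response of blood was set against that of spleen over 13418 probe sets. No member passed in burn (1 of 13 at an unadjusted p under 0.05), where 3.40% of all probe sets were called. In LPS, Nfkbia 1448306_at (by 0.87 ± 0.27, adjusted p = 0.043) and Nfkbie (by 0.78 ± 0.21, adjusted p = 0.022) responded more in blood, beside 8.53% called. In trauma-hemorrhage Nfkbiz 1448728_a_at responded less in blood, by −1.97 ± 0.26 (adjusted p = 1.35e-05), beside 25.5% called. Its blood difference in letter E was −0.62 ± 0.17 and its spleen difference 1.35 ± 0.16. Blood and spleen arrays were normalized separately. Without the 2 burn arrays that stood apart, 8 members passed over the 3 models instead of 3.

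Of 36 other genes of the pathway, listed as IκB kinases and adaptors, ubiquitin machinery and other inhibitors, 28 were tested. In burn, LPS and trauma-hemorrhage blood 1, 6 and 9 were higher and 6, 3 and 6 lower. Of all probe sets, 18.0%, 26.3% and 51.8% were called there, and 7.65%, 13.5% and 21.3% were higher. In the spleens 5, 6 and 9 were higher and 0, 0 and 6 lower, beside 17.7%, 3.30% and 27.4% of all probe sets called. The share of the list called stood close to the background in trauma-hemorrhage blood and burn spleen. Their median difference lay between −0.03 and 0.11 in the 6 sets. Birc3, a ubiquitin ligase that acts at the tumor necrosis factor receptor, was higher in 5 sets, by 0.46 ± 0.12 in LPS blood up to 0.80 ± 0.07 in trauma-hemorrhage spleen, and missed the threshold in burn blood (0.38, adjusted p = 0.052). Birc2, its close relative, was higher in LPS blood and all 3 spleens. Tnip1, which binds A20 and helps to restrain the pathway, was higher in trauma-hemorrhage blood (1.30 ± 0.18) and all 3 spleens, with 0.89 ± 0.10 in LPS spleen.

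Other genes of the list changed in fewer sets or in both directions. Tbk1, an IκB kinase relative, was higher by 1.38 ± 0.15 in trauma-hemorrhage blood, by 0.28 and 0.27 in burn and trauma-hemorrhage spleen, and lower by −0.23 ± 0.07 in LPS blood. Tab2, an adaptor of the kinase TAK1, was higher in burn blood (0.31 ± 0.08) and lower in LPS blood (−0.50 ± 0.09), where Tax1bp1, an A20 adaptor, had the largest rise (0.48 ± 0.08). Traf6, the ubiquitin ligase downstream of Toll-like receptors, was higher in burn spleen by 0.98 ± 0.14, and Traf1 in LPS spleen by 0.83 ± 0.18. Birc2 was higher by 0.74 ± 0.07 in trauma-hemorrhage spleen. Traf5, an adaptor of tumor necrosis factor family receptors, was lower in burn blood (−0.32 ± 0.05), trauma-hemorrhage blood (−0.37 ± 0.07) and trauma-hemorrhage spleen (−0.43 ± 0.10). Ikbkb, the catalytic IκB kinase, was lower in burn blood by −0.38 ± 0.08. In trauma-hemorrhage Nfkbil1 was lower in blood by −0.25 ± 0.06 and Tradd, a receptor adaptor, in spleen by −0.40 ± 0.07.

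Of 25 genes listed as known targets, 19 were tested in blood and 17 in spleen. In burn, LPS and trauma-hemorrhage blood 5, 10 and 9 were higher and 0, 1 and 2 lower, with medians of 0.09, 0.32 and 0.30. Of all probe sets, 18.0%, 26.3% and 51.8% were called there, and 7.65%, 13.5% and 21.3% were higher. In the spleens 5, 9 and 15 were higher and 3, 0 and 1 lower, with medians of −0.10, 0.65 and 1.21. The shares of all probe sets called were 17.7%, 3.30% and 27.4%. The targets named here were chosen after their values were seen. The chemokine gene Cxcl2 and the lectin gene Clec4e were higher in all 6 sets. The adhesion gene Icam1 was higher in LPS blood (0.84) and in LPS and trauma-hemorrhage spleen (0.96 and 0.77) and lower in burn spleen (−0.45). Sod2, the mitochondrial superoxide dismutase, was higher by 1.95 in trauma-hemorrhage blood and by 1.23 in LPS spleen, with −0.23 in burn blood, short of the threshold.

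Several of the member genes varied together, and others did not. Over all 98 arrays, centred within each set, the highest correlations among the shown probe sets were between Relb and Bcl3 (r = 0.85), Relb and Nfkbie (r = 0.84) and Rela and Bcl3 (r = 0.80). Within groups of 1 set, code and letter these were 0.61, 0.76 and 0.71. Centred within each set, Tnfaip3 followed none of the others, with r from −0.15 to 0.10. Nfkb2 1429128_x_at stayed between 0.03 and 0.14 with Rel, Rela, Relb, Bcl3 and Nfkbie, but reached 0.37 with Nfkbia and 0.29 with Nfkbiz. Within groups its r was 0.44 with Nfkbia, 0.36 with Nfkbiz and 0.35 with Bcl3. For Tnfaip3 the r within groups ran from −0.12 with Nfkbiz to 0.20 with Nfkbie, and in blood alone from −0.19 to 0.37 with the same genes. The arrays of a set share their scaling, and the points are given as a description. Outside the members, the genes whose pattern was most like the mean of the 9 shown probe sets, by the same centred correlation over 98 arrays, were Ier3 (r = 0.94), Tlr2 (r = 0.93), Acod1 (r = 0.93), Marcksl1 (r = 0.92) and Samsn1 (r = 0.91). Within groups these were 0.87, 0.88, 0.86, 0.83 and 0.83.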

How the data were processed

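The deposited table holds intensity values of 22690 probe sets on 98 1-colour arrays. For the authors' steps from scan to intensity, software and scaling were not given in the sources used here. Every set has its own lowest value, which 4.02% to 7.43% of an array's probe sets share, so sets are taken to have been floored separately. After leaving out 64 control probe sets, intensities plus 16 were put on the log2 scale and quantile normalized within each tissue. A probe set was left out where its mean lay below the 30th percentile of its tissue. Probe sets were named from the platform's gene table (20380 with 1 symbol, 691 with several, 1555 without).

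Models with 1 term per set, code and letter were fitted with limma 3.58.1 in R 4.3.3 (moderated statistics with a mean-variance trend, two-sided), with Benjamini-Hochberg adjustment over all 15838 tested probe sets (13418 for tissues) and a threshold of 0.05. The fit within each set was tested on simulated data: of 200 changed probe sets, changes of 1 on the log2 scale were recovered for 98% to 100% and changes of 0.5 for 80% to 96%, and 4.15% to 6.28% of calls were false. The simulated errors were normal and independent between probe sets, with no shift of whole arrays, no difference in RNA quality and no quantile normalization. These shares are therefore not error rates of the calls reported here. The number of arrays limits the precision.

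All member probe sets are reported. From the other pathway genes, those past the threshold in 1 direction in at least 4 sets are named, and per set the 2 largest rises and falls. Likeness is Pearson's r over 98 arrays. The members and gene lists were chosen with earlier results of these data known. Alternatives were other scalings, pseudocounts, filters, weights, variance settings and samples, a block for runs of title numbers, 1 probe set per gene, and each array left out. The actin covariate and leaving out a pair of burn blood arrays were chosen after seeing the data.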

Additional observations from a re-analysis of the deposited data

Results flagged for a closer look

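Single arrays stood apart from the others of their group of 4 to 6 for 22 of 252 combinations of group and member probe set, by the gap to the nearest array relative to the group's range. Chance gives about 1 in 20. The c array of letter A numbered 6 in LPS blood was high for 5 probe sets: Relb read 163 (others 96.6 to 116), Nfkbie 242, Nfkbia 1448306_at 912, Nfkbia 1420089_at 1290 and Nfkbia 1449731_s_at 3380. The c array of letter E numbered 4 in burn blood was high for Relb at 355 (others 114 to 142), Rel at 322 and Nfkb2 1425902_a_at at 247. The c array numbered 2 in LPS spleen was high for Nfkbiz 1417483_at at 1190 (others 433 to 593), Nfkbiz 1448728_a_at at 302 and Bcl3 at 536.

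The remaining arrays stood apart for 1 or 2 probe sets each. In LPS blood these were the x array of letter A numbered 2 (Nfkb2 1425902_a_at at 153, Tnfaip3 at 241), the x array of letter E numbered 5 (Tnfaip3, low at 131) and the c array of letter E numbered 5 (Nfkbia 1449731_s_at at 1390). In burn blood Bcl3 read 279 on an x array of letter A, and Nfkbie 130 on an x array of letter E. In trauma-hemorrhage blood Bcl3 was low on a c array of each letter, at 121 and 127. In the spleens Nfkbia 1420088_at read 4570 on a burn c array, Nfkbia 1420089_at read 1180 on an LPS x array and Nfkbiz 1417483_at read 624 on a trauma-hemorrhage c array.

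The difference between x and c itself differed between models or tissues in 29 tests. In blood, LPS against burn differed for Nfkbie (1.34), Bcl3 (1.24), Relb (1.17), Nfkb2 1425902_a_at (0.54) and Nfkbia 1420088_at (−0.59). Trauma-hemorrhage against burn differed for Bcl3 (0.99), Relb (0.83), Nfkbie (0.71), Rela (0.61), Nfkb2 1425902_a_at (0.59) and Nfkbiz 1448728_a_at (−1.05). Trauma-hemorrhage against LPS differed for Nfkbia 1420088_at (0.55), Rela (0.30), Nfkbie (−0.63) and Nfkbiz 1448728_a_at (−0.87). In this order these were 5, 6 and 4 of 14 members, beside 20.9%, 43.3% and 47.5% of all probe sets. The share for trauma-hemorrhage against burn stood close to the background, and that for trauma-hemorrhage against LPS below it.

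In spleen, LPS against burn differed for Bcl3 (1.23), Nfkbie (0.93), Nfkbia 1448306_at (0.68) and Nfkbia 1420089_at (0.53). Trauma-hemorrhage against burn differed for Bcl3 (1.34), Nfkbiz 1417483_at (1.18), Nfkbiz 1448728_a_at (1.03), Nfkbie (0.53), Nfkbia 1448306_at (0.53) and Rel (0.38), and against LPS for Nfkbiz 1417483_at (0.84). In this order the spleen comparisons gave 4, 6 and 1 of 13 members, beside 9.09%, 23.1% and 12.1% of all probe sets. Between blood of letter E and spleen, Nfkbia 1448306_at (0.87) and Nfkbie (0.78) differed in LPS and Nfkbiz 1448728_a_at (−1.97) in trauma-hemorrhage. These were 2 and 1 of 13 members, beside 8.53% and 25.5% of all probe sets.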

How the results depend on the processing

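Of 49 calls among 81 differences between x and c, none was lost or gained with quantile normalization within each set or with a pseudocount of 1 or 64. The deposited scaling lost 3 and gained 2, no filter lost 6, array weights lost 3 and gained 5, and the actin ratio lost 17 and gained 1. With the actin ratio, the LPS blood difference of Rela was −0.32 and that of Nfkb2 1425902_a_at −0.19, both reversed, and the member calls were 0 in LPS blood, 0 in trauma-hemorrhage blood, 1 over the letter A comparisons, 3 over letter E and 1 between tissues. Array weights gave 9 calls in burn blood, 4 for E against A, 5 for the interaction and 8 between tissues, and no filter gave 1 between tissues. Sharing the spread with other sets gave 4 in burn spleen. Without the pair of burn blood arrays there were 10 in burn blood and 8 between tissues. With 1 probe set per gene, fewer were tested, and the calls were 3, 4, 4, 5 and 7 in burn blood, LPS blood, burn spleen, LPS spleen and trauma-hemorrhage spleen, 11 in letter E, 7 between models in spleen and 1 between tissues. The cause of these shifts was otherwise not tested.

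Leaving out each array in turn gave 4 to 9 calls in burn blood, 7 to 9 in LPS blood, 9 to 11 in trauma-hemorrhage blood, 6 to 7 in burn spleen, 6 to 11 in LPS spleen and 10 to 11 in trauma-hemorrhage spleen. Joint counts ran from 8 to 18 in letter A (8 without the trauma-hemorrhage x array numbered 1), 16 to 20 in letter E, 0 to 3 for the interaction, 14 to 16 between models in blood, 9 to 19 in spleen and 1 to 4 between tissues (1 without the LPS blood x array of letter E numbered 4). LPS spleen fell to 6 without c array 5 or x array 1, 2 or 4. The block for title-number runs lost 1 of 31 calls and could not be fitted for burn and trauma-hemorrhage spleen. No paired analysis was possible because the labels give no replicate numbers.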
